A study of Mus musculus with 18 samples.

Results

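The genes described here are 10 that handle retinol (vitamin A) and its active product retinoic acid, followed in RNA from mouse colon. They were taken by symbol from a table of 35976 gene symbols: Rbp2, Adh1, Dhrs3, Aldh1a1, Aldh1a2, Aldh1a3, Crabp2, Rara, Rarb and Cyp26b1. All 10 had a row, and 8 passed the filter for testing, a level of at least 1 TPM (a transcript's share of the library after division by its length) in at least 6 libraries, as did 14129 genes in all. Cyp26b1 and Crabp2 lay under that filter, with 3 and 1 libraries at 1 TPM or more.

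The 18 libraries form 3 groups of 6, all of colon tissue taken on day 2. The sham group had no induced colitis. The vehicle group had colitis induced with TNBS, a hapten that provokes acute inflammation of the colon, and received vehicle. The ISM012-042 group had TNBS colitis as well and received ISM012-042, a compound that by the series title inhibits PHD in the gut; these prolyl hydroxylases tag HIF, the hypoxia-inducible factor, so that it is destroyed. The sources used here do not give strain, age, dose or the sham procedure, nor do they say that each library came from its own animal, so p-values measure the spread between these libraries. The tissue was homogenized whole, and a change in the number of cells of a type cannot be told apart from a change in RNA per cell.

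Markers of mature colonocytes were present in every library, with none of the 10 at 0 in any, and summed to between 4380 and 14555 TPM. Neutrophil markers summed to between 4.67 and 25.1 TPM in sham, and reached 24777 TPM in vehicle replicate 2 and 6612 TPM in ISM012-042 replicate 2. Hoxb13, a homeobox gene of the distal colon, ranged from 9.05 to 288 TPM in sham, from 1.52 to 179 TPM in vehicle and from 0.329 to 219 TPM in ISM012-042. Libraries of each group thus differed in this gene of position, and its difference between groups did not pass the test (limma, vehicle against sham -2.19 with an SE of 1.40, adjusted p = 0.444). The number of genes at 1 TPM or more was 12681 to 14632 per library, and the depth behind the TPM values is unknown.

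Retinol taken up by enterocytes is bound by RBP2. Alcohol and short-chain dehydrogenases such as ADH1 oxidize it reversibly to retinal, which DHRS3 reduces back to retinol, and the ALDH1A enzymes oxidize retinal irreversibly to retinoic acid. Retinoic acid is carried to the nucleus by CRABP2, binds the receptors RARA, RARB and RARG, which sit on DNA with RXR partners, and is degraded by the CYP26 enzymes. In the gut the pathway is known for giving lymphocytes their homing receptors, for supporting regulatory T cells and for acting on the epithelium.

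The 250 bases before the transcription start are shown for the classical retinoic acid target among the receptors, Rarb, and for the pair of genes that lay lowest in vehicle relative to sham, Adh1 and Rbp2 (RefSeq, GRCm38.p6). RAR-RXR pairs bind direct repeats of the hexamer AGGTCA and of close variants such as GGTTCA or the related AGTTCA, and these 3 hexamers were searched on both strands, singly and as direct repeats spaced by 1, 2 or 5 bases. Capitals mark the matches, and those of single hexamers lie within the repeat where one was found.
Rarb (chr14:16575477-16575726, minus strand): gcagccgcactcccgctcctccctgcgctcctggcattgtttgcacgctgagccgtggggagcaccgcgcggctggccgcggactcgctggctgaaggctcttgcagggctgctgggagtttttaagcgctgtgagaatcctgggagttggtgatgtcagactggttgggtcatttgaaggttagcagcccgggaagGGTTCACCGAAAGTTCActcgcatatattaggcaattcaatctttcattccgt
Adh1 (chr3:138277335-138277584, plus strand): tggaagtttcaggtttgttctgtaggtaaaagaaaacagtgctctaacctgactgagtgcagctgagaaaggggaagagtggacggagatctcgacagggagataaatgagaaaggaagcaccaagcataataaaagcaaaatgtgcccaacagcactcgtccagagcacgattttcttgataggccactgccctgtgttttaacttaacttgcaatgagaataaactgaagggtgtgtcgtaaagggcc
Rbp2 (chr9:98490287-98490536, plus strand): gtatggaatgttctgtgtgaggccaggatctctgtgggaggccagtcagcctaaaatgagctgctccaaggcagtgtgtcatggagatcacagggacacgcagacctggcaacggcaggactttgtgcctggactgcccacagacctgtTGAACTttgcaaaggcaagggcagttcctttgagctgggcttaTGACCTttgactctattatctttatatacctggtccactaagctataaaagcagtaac
Rarb held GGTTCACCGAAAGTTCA, a direct repeat spaced by 5 bases, starting 53 bases before the start site. Such a repeat was in 18 of 32851 mouse promoters, 0.0548%. Rbp2 held TGAACT 101 bases before its start, the reverse complement of the hexamer AGTTCA. It also held TGACCT 58 bases before the start, the reverse complement of the hexamer AGGTCA. Of all promoters 11.8% held AGTTCA, 14.0% held AGGTCA and 8.85% held GGTTCA. Adh1 held none of the hexamers, which says only that these letters are not in this window. Promoters were matched for 8 of the 10 genes, 14 in all. ACGTG, the core of the hypoxia response element, was in 16.6% of all promoters and among these 14 in that of Aldh1a2 and in 1 of 4 of Rara.

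Vehicle against sham asks what TNBS did to these genes. Of the 8 tested, Adh1 fell, and the other 7 did not pass the test, which was limma on log2(TPM + 1) with Benjamini-Hochberg adjustment over the 14129 genes and a threshold of 0.05. Over all genes 4.46% passed in either direction and 4.13% were lower, with 0.326% higher. The values of the 8 lay above 0 for 4 and below 0 for 4, with a median of -0.07, the same as over all genes (-0.07). Of all genes 58.7% lay below 0. Before adjustment 3 of the 8 had p under 0.05 in limma, as did 18.1% of all genes. Differences are given on the log2(TPM + 1) scale with their SE and understate the change of low genes.

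**Figure D1:**
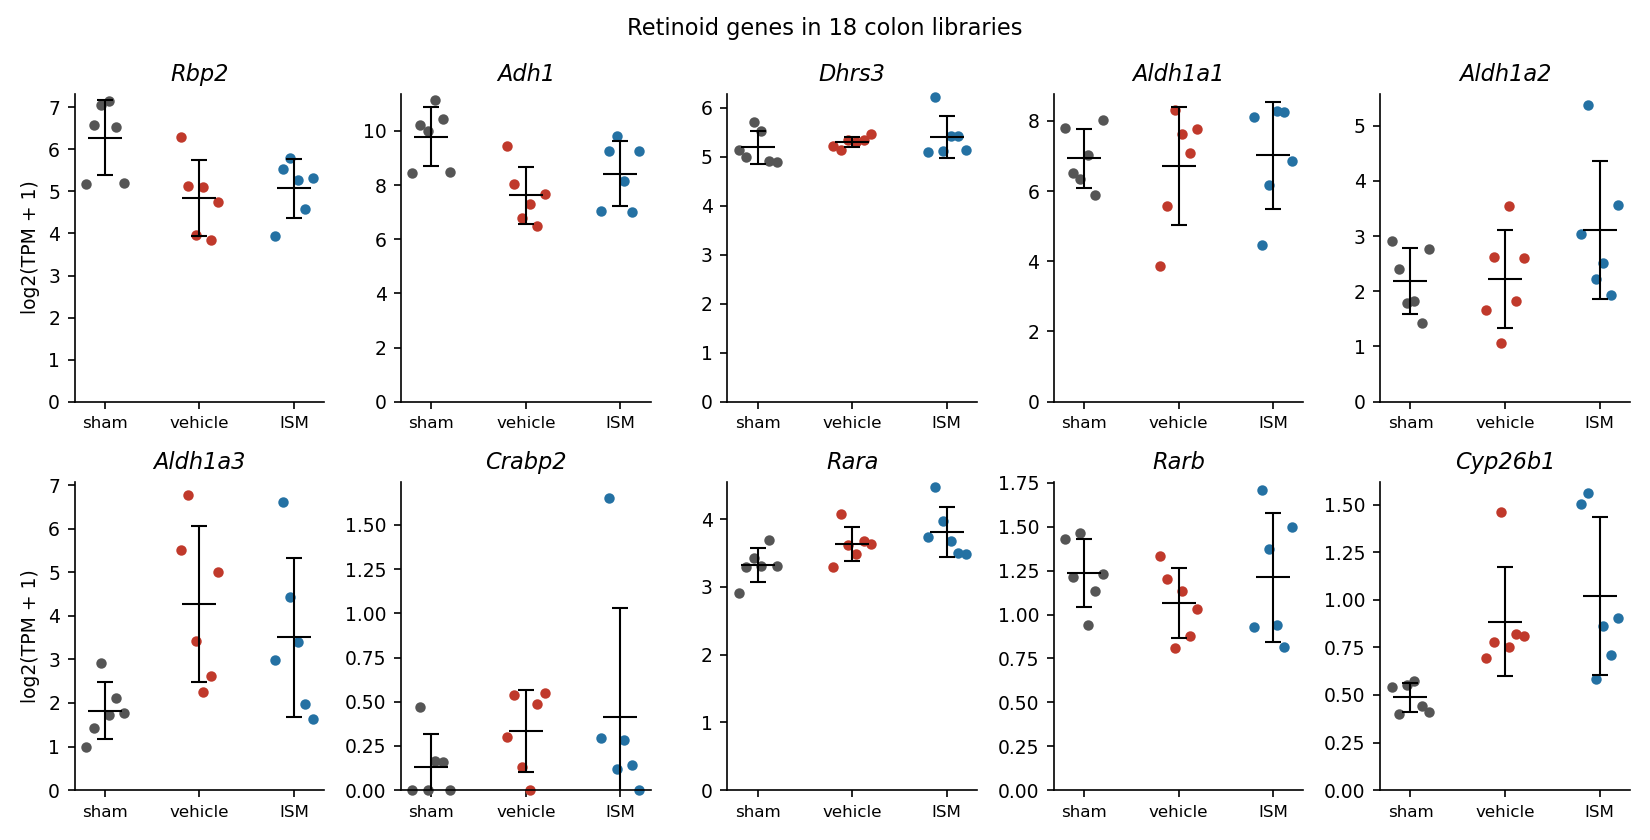
Level of each of the 10 genes as log2(TPM + 1), 1 point per library in the order of the replicate numbers, with the mean and SD of each group of 6. Adh1 and Rbp2 lie highest in sham, Aldh1a3 spreads upward in vehicle and ISM012-042, and Crabp2 and Cyp26b1 are low in all groups. Each panel has its own axis from 0, and ISM stands for ISM012-042.

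Adh1 (chromosome 3, 138277585 to 138290698, GRCm38.p6), an alcohol dehydrogenase that accepts retinol, had a lowest, median and highest level of 345, 1112 and 2267 TPM in sham, 89.0, 180 and 693 TPM in vehicle, and 128, 447 and 891 TPM in ISM012-042. Of the vehicle libraries 5 of 6 lay below the lowest sham library, and vehicle replicate 1 overlapped with sham. Adh1 fell by 2.16 ± 0.60 in vehicle (95% interval -3.42 to -0.90, n = 6 per group, limma adjusted p = 0.0483), from 1095 ± 717 to 253 ± 225 TPM (mean ± SD). By unadjusted p it ranked 597 of 14129. The call lay close to its threshold: it was lost when any of 9 of the 12 libraries compared was left out and held only without sham replicate 1, sham replicate 6 or vehicle replicate 1, with adjusted p between 0.0144 and 0.126. It was also lost with no filter (adjusted p = 0.0699) and without the vehicle and ISM012-042 libraries of most neutrophil markers (0.0708). The same held with array weights (0.0758), with only the groups compared (0.0589) and with the replicate number as a block (0.0910). Of the 14 alternatives other than leaving out 1 library, 9 kept the call.

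Rbp2 (chromosome 9, 98490537 to 98509771), the retinol-binding protein of absorptive enterocytes, was spread in the same way. Its lowest, median and highest levels were 35.2, 93.0 and 140 TPM in sham, 13.3, 29.6 and 77.7 TPM in vehicle and 14.2, 38.2 and 54.7 TPM in ISM012-042. Again 5 of 6 vehicle libraries lay below the lowest sham library, with replicate 1 as the exception. The difference of -1.44 ± 0.44 did not pass the test (95% interval -2.37 to -0.51, limma adjusted p = 0.0745). It passed without vehicle replicate 1 (-1.73, limma adjusted p = 0.0183) and without sham replicate 6 (0.0471). It also passed with median-ratio scaling of the libraries (0.0457) and with mitochondrial genes left out (0.0494).

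Adh1 and Rbp2 varied together from library to library. Their log2 levels had a Pearson r of 0.945 and a Spearman rho of 0.975 over the 18 libraries, and r = 0.937, 0.957 and 0.915 within the 6 of sham, vehicle and ISM012-042. Both followed Hoxb13 (r = 0.867 for Adh1 and 0.806 for Rbp2), and 0.828% and 2.31% of the tested genes were at least as correlated with Hoxb13. Sham replicates 1 and 6, with 16.1 and 9.05 TPM of Hoxb13, had the lowest Adh1 of the sham group, 345 and 360 TPM. These are descriptions of 18 libraries that share tissue composition and the TPM total. With the Hoxb13 level as a covariate the difference of Adh1 passed at -1.32 ± 0.28 (limma adjusted p = 0.0150), and that of Rbp2 was -0.87 (adjusted p = 0.0836).

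Markers of epithelial cell types moved in the same comparison, in which 4.13% of all genes were called lower and 0.326% higher. Of 6 goblet cell markers 2 were called lower in vehicle than in sham and none higher, and their sum was 18040 to 29722 TPM in sham, 6763 to 23393 in vehicle and 9973 to 26552 in ISM012-042. None of the 6 was at 0 in any library. Its r with Adh1 was 0.795 and with Rbp2 0.729. Of 10 mature colonocyte markers 5 were called lower in vehicle and none higher, with a sum of 8648 to 14050 TPM in sham, 4791 to 10496 in vehicle and 4380 to 14555 in ISM012-042, and r of -0.08 with both Adh1 and Rbp2. Markers of absorptive cells of the proximal colon and small intestine ran the other way, with r = -0.611 for Adh1 and -0.651 for Rbp2. Of 7 with a row 4 were tested, all above 0 in vehicle minus sham and none called. These 7 summed to 40.3 to 1366 TPM in sham, 73.9 to 523 in vehicle and 87.4 to 711 in ISM012-042. The list of pancreas markers ran closest, with r = 0.951 for Adh1 and 0.892 for Rbp2 and a sum of 27.5 to 205 TPM in sham, 6.02 to 112 in vehicle and 5.18 to 118 in ISM012-042. Only Cela1 of its 6 genes was tested, with 27.4 to 205 TPM in sham, 5.94 to 112 in vehicle and 5.18 to 118 in ISM012-042, while Cpa1 was at 0 in all 18 libraries and Prss2, Cela3b, Pnlip and Ctrb1 at most at 0.357 TPM. Cela1 did not pass in vehicle against sham (-1.91 ± 0.76, limma adjusted p = 0.179). Outside the epithelium, the sum of adipocyte markers had r = -0.645 with Adh1 and -0.653 with Rbp2. The part of these cell types in the levels of Adh1 and Rbp2 was not tested.

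**Figure D2:**
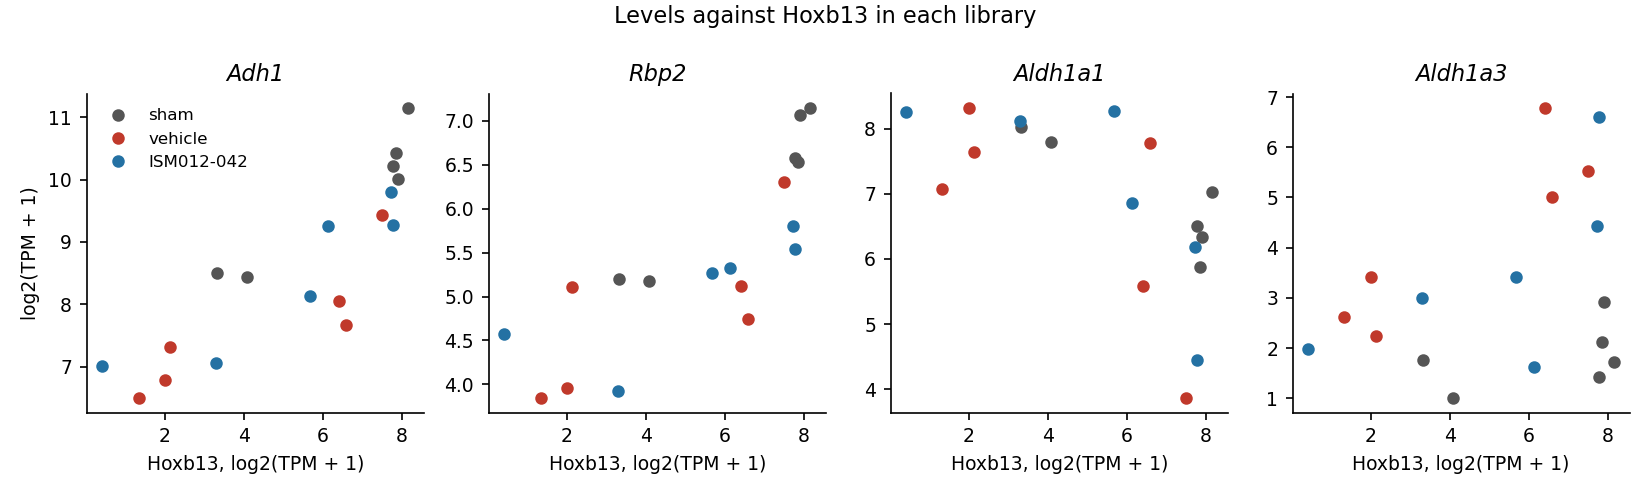
Log2(TPM + 1) of Adh1, Rbp2, Aldh1a1 and Aldh1a3 against that of Hoxb13, 1 point per library, coloured by group. Adh1 and Rbp2 rise with Hoxb13 (r = 0.867 and 0.806), Aldh1a1 falls (r = -0.660), and Aldh1a3 has r = 0.329 over all libraries but 0.478, 0.895 and 0.649 within sham, vehicle and ISM012-042.

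Dhrs3 (chromosome 4, 144892534 to 144928209), which reduces retinal and is a retinoic acid target in many cells, was among the steadiest of the 10. It had 28.8, 32.5 and 51.0 TPM as lowest, median and highest level in sham, 34.3, 38.7 and 42.8 in vehicle, and 33.1, 37.8 and 73.5 in ISM012-042. The groups overlapped, and the 73.5 TPM of ISM012-042 replicate 2 stood apart from the next library at 41.6. Vehicle minus sham was 0.10 ± 0.19 (95% interval -0.29 to 0.50, limma adjusted p = 0.824).

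The 3 retinal dehydrogenases were above 0 in every library and differed between libraries in which was most abundant. None of their differences between groups passed the test, the largest being that of Aldh1a3 in vehicle minus sham (2.44). Aldh1a1 (chromosome 19, 20492583 to 20643463), the form of the epithelium in many tissues, had 57.7, 110 and 258 TPM as lowest, median and highest level in sham, 13.5, 166 and 318 in vehicle and 20.9, 196 and 307 in ISM012-042. The groups overlapped throughout. Vehicle minus sham was -0.22 ± 0.75 (95% interval -1.79 to 1.35, limma adjusted p = 0.917), and it turned to 0.35 without vehicle replicate 1. With the Hoxb13 level as a covariate the difference was -1.07 ± 0.56 and did not pass (limma adjusted p = 0.26). The r of Aldh1a1 with Hoxb13 was -0.660 and with the sum of mature colonocyte markers 0.790. Its close paralog Aldh1a7, with mean levels of 7.44, 4.41 and 6.92 TPM in sham, vehicle and ISM012-042, could take part of its reads, depending on how reads were counted.

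Aldh1a2 (chromosome 9, 71215789 to 71296243), known from stromal and dendritic cells, had 1.70, 3.43 and 6.50 TPM as lowest, median and highest level in sham, 1.08, 3.80 and 10.7 in vehicle, and 2.79, 5.95 and 40.3 in ISM012-042. ISM012-042 replicate 2 held the 40.3 TPM, and all other libraries were at or below 10.9. Vehicle minus sham was 0.03 ± 0.51 (limma adjusted p = 0.985). In that library fibroblast markers summed to 2820 TPM, against 268 to 798 TPM in sham and vehicle, and dendritic cell markers to 22.4 TPM, against 3.94 to 16.4 TPM. The highest sum of dendritic cell markers, 34.3 TPM, was in ISM012-042 replicate 3, where Aldh1a2 was at 3.67 TPM. Their part in the level of Aldh1a2 was not tested.

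Aldh1a3 (chromosome 7, 66390892 to 66427477), the third retinal dehydrogenase, had 0.997, 2.36 and 6.59 TPM as lowest, median and highest level in sham, 3.75, 20.3 and 109 in vehicle and 2.08, 8.29 and 96.5 in ISM012-042. In vehicle 4 of 6 libraries lay above the highest sham library, as did 4 of 6 in ISM012-042, and the others fell within the sham range. Vehicle minus sham was 2.44 ± 0.81 and did not pass the test (95% interval 0.72 to 4.15, limma adjusted p = 0.1005), with means of 2.89 ± 1.98 and 33.9 ± 40.2 TPM (SD). It passed with median-ratio scaling (2.52, adjusted p = 0.0364), with quantile normalization (0.0410), with the 13 mitochondrial genes left out (0.0401), with array weights (0.0105) and with Hoxb13 as a covariate (3.34, 0.00800), and in none of the 12 fits that left out 1 library. The libraries high in Aldh1a3 were also those with most markers of stratified squamous epithelium, a list of 8 of which 2 were tested: it summed to between 0.644 and 2.71 TPM in sham, 1.71 and 46.1 in vehicle and 0.989 and 69.9 in ISM012-042 (r = 0.907 with Aldh1a3 on the log2 scale), while Sprr3 and Sprr1b, cornified envelope genes, were at 0 in all 18 libraries. Its r with the neutrophil marker sum was 0.861. The part of either in the level of Aldh1a3 was not tested, and without the vehicle and ISM012-042 libraries of most neutrophil markers the difference was 1.93 (adjusted p = 0.0909).

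Summed over the 3 dehydrogenases the level was 60.5 to 328 TPM per library. Aldh1a1 was the most abundant in 15 of 18 libraries and made 89.8% to 96.9% of the sum in sham. Aldh1a3 was the most abundant in vehicle replicates 1 and 2, with 74.1% and 67.7% of the sum, and in ISM012-042 replicate 2, with 61.2%. Aldh1a2 made at most 25.5%, in that same ISM012-042 library. The ratio of Adh1 to Aldh1a1, both in TPM, ran from 0.346 to 51.2 over the libraries, with medians of 13.1 in sham, 0.862 in vehicle and 3.14 in ISM012-042, and the groups overlapped.

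**Figure D3:**
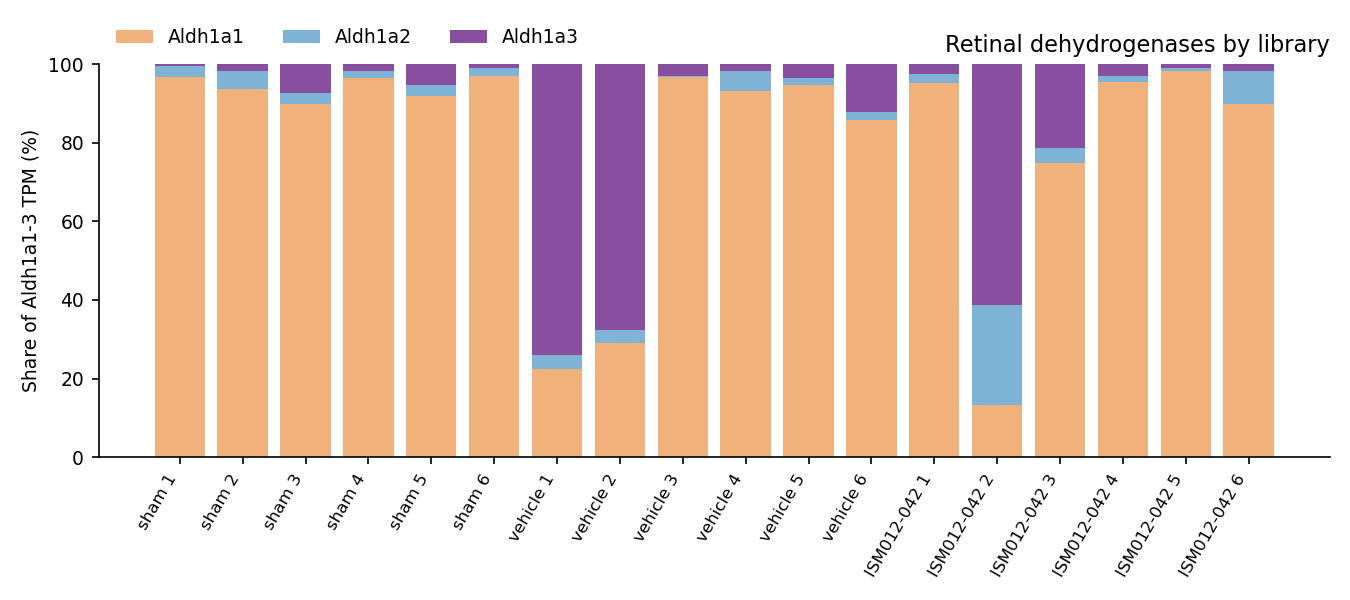
Share of Aldh1a1, Aldh1a2 and Aldh1a3 in their summed TPM, 1 bar per library, grouped into sham, vehicle and ISM012-042. Aldh1a1 makes nearly the whole bar in sham, and Aldh1a3 makes most of it in vehicle replicates 1 and 2 and ISM012-042 replicate 2.

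Crabp2 (chromosome 3, 87948693 to 87953372), which delivers retinoic acid to the receptors, was at the lower end of the table. It was listed at 0 in 3 sham libraries, 1 vehicle library and 1 ISM012-042 library, and its highest level was 0.388 TPM in sham, 0.464 in vehicle and 2.14 in ISM012-042, the last in replicate 2. The groups overlapped.

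The receptors were present at low to moderate level. Rara (chromosome 11, 98927800 to 98974942) had 6.51, 8.89 and 11.9 TPM as lowest, median and highest level in sham, 8.85, 11.4 and 15.9 in vehicle and 10.2, 12.1 and 21.2 in ISM012-042. Vehicle and sham overlapped, with 1 vehicle library above all of sham. Vehicle minus sham was 0.31 ± 0.18 (95% interval -0.06 to 0.68, limma adjusted p = 0.383). Rarb (chromosome 14, 16430839 to 17082331), whose promoter is shown above, reached 1 TPM in 12 libraries. It had 0.920, 1.34 and 1.76 TPM in sham, 0.751, 1.12 and 1.52 in vehicle, and 0.761, 1.25 and 2.27 in ISM012-042. Vehicle minus sham was -0.17 ± 0.17 (95% interval -0.52 to 0.18, limma adjusted p = 0.647). For neither receptor did the difference from sham pass the test.

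Cyp26b1 (chromosome 6, 84571414 to 84593908), which degrades retinoic acid, was low in all libraries, yet its vehicle and sham levels did not overlap. It had 0.319, 0.409 and 0.490 TPM as lowest, median and highest level in sham, 0.619, 0.734 and 1.76 in vehicle, and 0.497, 0.843 and 1.95 in ISM012-042. All 12 libraries with TNBS lay above all 6 of sham. Among the 25725 genes above 0 in some library, 0.482% were higher in vehicle than in sham without overlap and 2.22% in ISM012-042, and among those of a mean of 0.5 to 1 TPM the shares were 0.616% and 0.77%. In a fit with no filter the differences were 0.40 ± 0.17 (limma adjusted p = 0.281) and 0.53 (0.169), neither past the threshold. Over 24 alternatives the ISM012-042 difference ran from 0.17 to 1.11 and passed in 1 (limma adjusted p = 0.0346). The vehicle difference ran from 0.12 to 0.89 and passed in none. After median-ratio scaling vehicle still lay above sham without overlap, while ISM012-042 overlapped with sham.

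ISM012-042 against vehicle asks what the compound did within TNBS colitis. None of the 8 tested genes passed in limma, with 0 of them at an unadjusted p under 0.05, and none of all genes passed (0%), although 2688 lay under 0.05 before adjustment, 2670 of them higher. The median of all genes was 0.30 in this comparison and 0.01 after median-ratio scaling. The 8 genes had a median of 0.20, with 7 above 0 and 1 below, where 7.91% of all genes lay below 0. After that scaling only Adh1 and Aldh1a2 remained above 0. Adh1 differed by 0.80 ± 0.60 (95% interval -0.46 to 2.06, limma adjusted p = 0.393), or by 0.47 after scaling. Rbp2 differed by 0.22 ± 0.44 (-0.71 to 1.15, adjusted p = 0.725), which became -0.09 after scaling. Aldh1a3 differed by -0.76 ± 0.81 (-2.47 to 0.96, adjusted p = 0.528) and Aldh1a1 by 0.31 ± 0.75 (-1.26 to 1.89, 0.774). All 4 intervals span 0.
Aldh1a2 differed by 0.89 ± 0.51 (-0.18 to 1.95, adjusted p = 0.303), and by 0.52 without the vehicle and ISM012-042 libraries of most neutrophil markers. The intervals were narrower for Dhrs3 (0.10 ± 0.19, -0.29 to 0.49, adjusted p = 0.715), Rara (0.18 ± 0.18, -0.20 to 0.55, 0.502) and Rarb (0.15 ± 0.17, -0.20 to 0.50, 0.550), and all 3 were negative after scaling.

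ISM012-042 against sham gave no call among the 8 either in limma, with 1.42% of all genes passing (0.871% lower). Before adjustment 3 of the 8 had p under 0.05, as did 20.8% of all genes. The comparison shares the sham libraries with that of vehicle. Adh1 was -1.37 ± 0.60 (95% interval -2.63 to -0.11, limma adjusted p = 0.219), with 3 of 6 ISM012-042 libraries below all of sham. Rbp2 was -1.21 ± 0.44 (-2.14 to -0.28, adjusted p = 0.161). Aldh1a3 was 1.68 ± 0.81 (-0.03 to 3.39, adjusted p = 0.246), or 1.06 without the vehicle and ISM012-042 libraries of most neutrophil markers. Of the 14 alternatives other than leaving out 1 library, Adh1 passed in 1, Rbp2 in 2 and Aldh1a3 in 3. Their lowest limma adjusted p were 0.01395, 0.0128 and 0.0376, and none of these genes passed when 1 library was left out.
Rara was 0.49 ± 0.18 (0.11 to 0.86, adjusted p = 0.160), or 0.28 after median-ratio scaling. It passed in 1 of the 14 alternatives (limma adjusted p = 0.0475) and in no fit that left out 1 library. In ISM012-042 replicate 2, the library of highest Rara, endothelial markers summed to 193 TPM, against 17.2 to 59.0 TPM in all others. The r of Rara with that sum was 0.898, and the Spearman rho was 0.721. The part of endothelial cells in the level of Rara was not tested. Aldh1a1 (0.09 ± 0.75), Aldh1a2 (0.92 ± 0.51), Dhrs3 (0.20 ± 0.19) and Rarb (-0.03 ± 0.17) had adjusted p between 0.290 and 0.946.

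**Figure D4:**
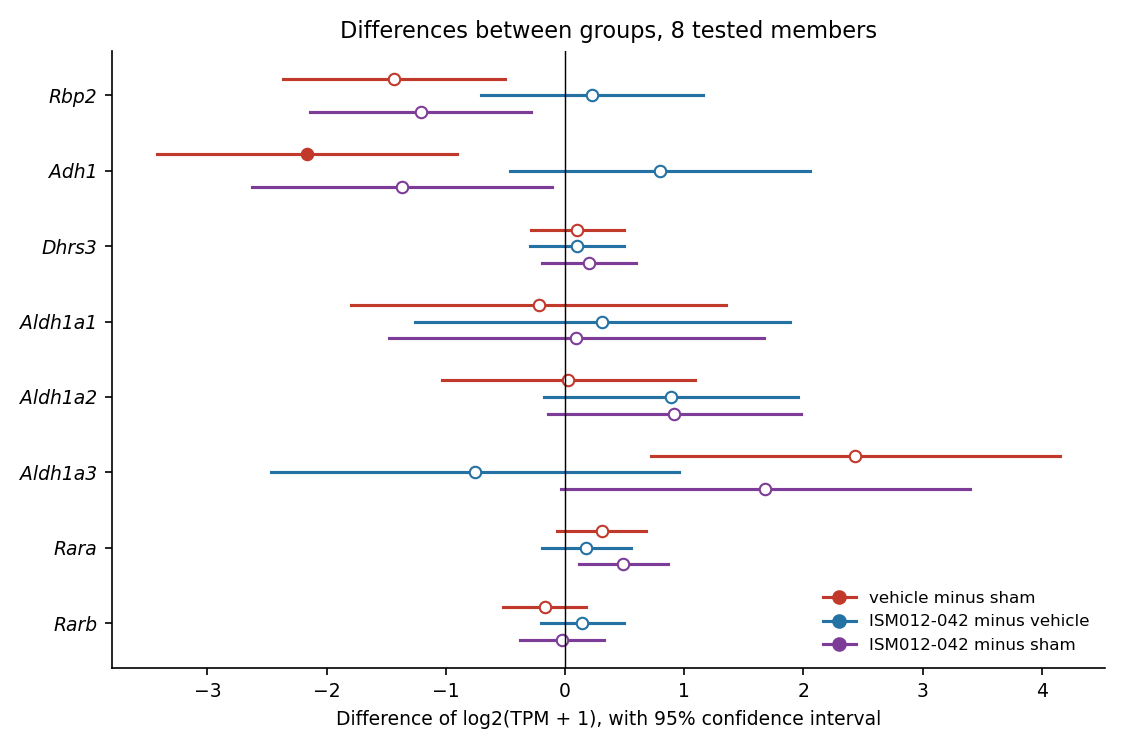
Difference between groups for the 8 tested genes on the log2(TPM + 1) scale with the 95% interval, each comparison in its own colour. A filled point marks an adjusted p under 0.05, which Adh1 in vehicle minus sham alone reaches (-2.16).

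ISM012-042 replicate 2 was the highest of the 18 libraries for 6 of the 10 genes, Aldh1a2, Dhrs3, Cyp26b1, Rara, Rarb and Crabp2. Its median-ratio factor was also the largest of the 18, 1.40 against 0.584 to 1.22 in the others. Genes in general thus read high in it, and how many of all genes were highest there was not counted. Aldh1a3 was highest in vehicle replicate 2, Aldh1a1 in vehicle replicate 3, and Adh1 and Rbp2 in sham replicate 4. That ISM012-042 library also had the lowest sum of mature colonocyte markers, 4380 TPM, and the most neutrophil markers of its group. Without it the sign of the ISM012-042 minus vehicle difference of Dhrs3 turned (-0.07).

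The other genes of the pathway were described from a list of 57, of which 46 were tested. None passed in vehicle against sham or in ISM012-042 against vehicle, and 1 rose in ISM012-042 against sham, where 0.545% of all genes rose. Their medians, -0.07, 0.33 and 0.20, lay near those of all genes, -0.07, 0.30 and 0.21. By role the tested genes numbered 10 for uptake, binding and storage, 5 for carotenoid uptake and cleavage, 15 for dehydrogenases and reductases, 1 for retinoic acid clearance and 9 for nuclear receptors and cofactors. The 15 dehydrogenases and reductases had a median of -0.33 in vehicle against sham, with 10 below 0. A list of 19 genes known to be induced by retinoic acid, some of them also members or in the lists by role, had 13 tested, none passing in any comparison. It lay above 0 for 9, 10 and 11 of the 13 in vehicle against sham, ISM012-042 against vehicle and ISM012-042 against sham, with medians of 0.10, 0.25 and 0.38. Below 0 were 4, 3 and 2 of the 13, and of all genes tested 58.7%, 7.91% and 22.9%.

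The gene that rose was Rarg, the receptor of epithelia. It had 4.84, 5.47 and 7.15 TPM as lowest, median and highest level in sham, 5.70, 7.84 and 8.85 in vehicle and 9.09, 9.43 and 15.7 in ISM012-042. All 6 ISM012-042 libraries lay above every vehicle and every sham library, as did 0.651% of tested genes for vehicle and 3.8% for sham. Rarg rose by 0.76 ± 0.15 against sham (95% interval 0.44 to 1.08, limma adjusted p = 0.0161), and against vehicle the difference of 0.43 ± 0.15 did not pass (0.233). Leaving out any of the 12 libraries kept the call. It was lost with quantile normalization (0.50, adjusted p = 0.0754), and after median-ratio scaling, where it held against sham (0.56, 0.0462), the ISM012-042 and vehicle levels overlapped.

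The most abundant of the others by role were present in every library. Rbp4, the plasma carrier of retinol, had mean levels of 37.1, 33.9 and 40.6 TPM in sham, vehicle and ISM012-042, and Dgat1, which can esterify retinol, 32.1, 29.1 and 34.4. Isx, the intestinal repressor of carotenoid uptake that retinoic acid induces, had 56.8, 92.4 and 108 TPM, with SDs of 57.8, 41.0 and 62.1. Cd36 had 29.9, 49.9 and 88.3 TPM, with SDs of 46.5, 44.9 and 64.9. Adipocyte markers summed to 21.8 to 2660 TPM in sham, 30.3 to 2744 in vehicle and 164 to 3705 in ISM012-042, with medians of 64.0, 724 and 1927. The part of adipocytes in the level of Cd36 was not tested. Among dehydrogenases and reductases Akr1b8 had 70.4, 67.7 and 71.4 TPM and Adh5 52.5, 67.2 and 88.0. None of these differences passed the test.
Cyp2s1, which can oxidize retinoic acid, had 42.5, 25.0 and 40.0 TPM. Cyp26a1, the main clearing enzyme in other tissues, was listed at 0 in all 6 sham libraries, 1 vehicle library and 4 ISM012-042 libraries and reached at most 0.404 TPM. Ppard and Ncor1, a nuclear receptor and a corepressor, had 66.0, 46.8 and 52.0 TPM and 29.0, 27.1 and 36.2 TPM. Of the genes named as retinoic acid targets Cd38 had 149, 175 and 120 TPM and Rarres2 120, 130 and 159 TPM. Cyp26a1 lay under the filter, and none of the others passed.

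**Figure D5:**
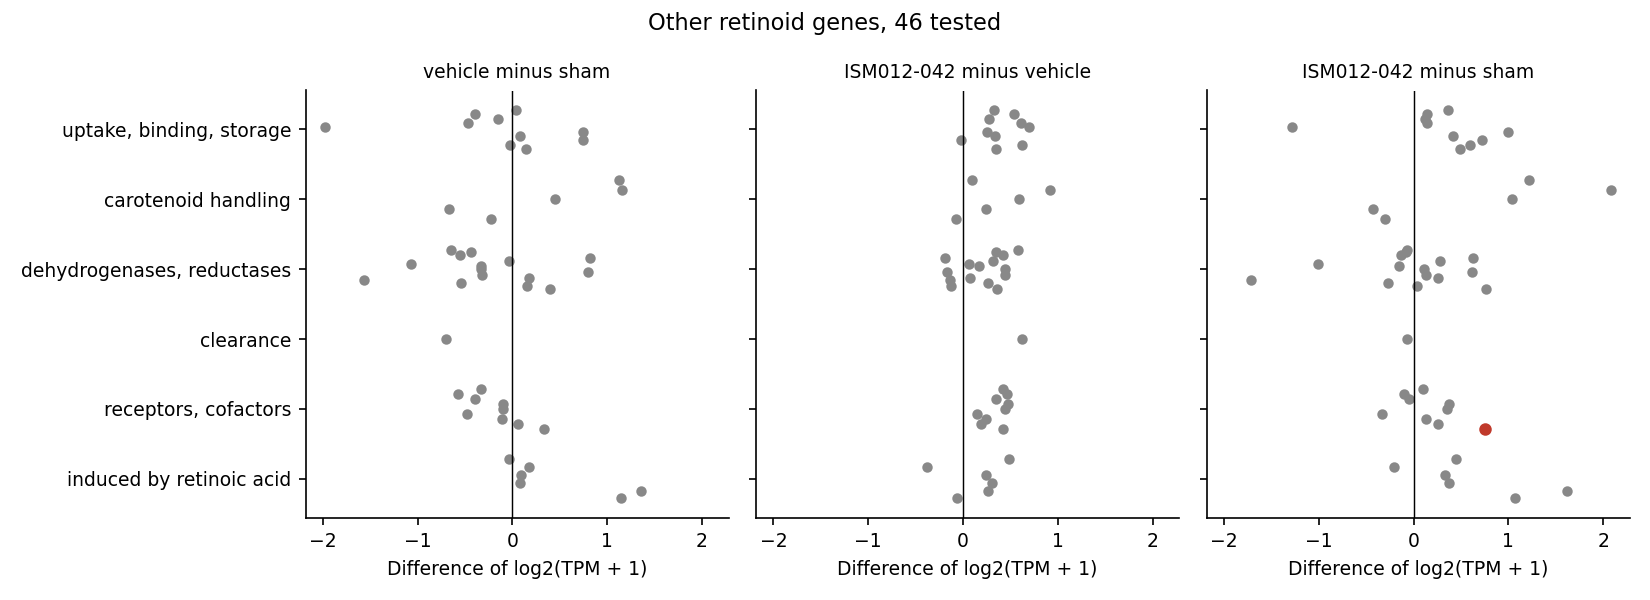
Difference between groups on the log2(TPM + 1) scale for the 46 tested other genes of the pathway, 1 point per gene, by role, 1 panel per comparison. Red marks an adjusted p under 0.05, which Rarg in ISM012-042 minus sham alone reaches.

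The genes whose log2 levels ran most like each member of at least 5 TPM were found by Pearson r over the 18 libraries. For Adh1 they included Ggh (r = 0.979) and Nrap (0.977), and for Rbp2 the peptide transporter gene Slc15a1 (0.955), Cyp2d12 (0.945) and Adh1 itself (0.945). Aldh1a1 ran with Mettl7b (0.941), Cpt1b (0.916) and Dpyd (0.906). Aldh1a3 ran with the keratin genes Krt13 (0.949) and Krt90 (0.940) and the protease gene Prss22 (0.943), and Krt13 is on the squamous list above. Aldh1a2 ran with Map1a (0.950), Kctd17 (0.934) and Mcam (0.929), and Rara with Trim8 (0.907) and the endothelial genes Pecam1 (0.902) and Plvap (0.887). For Aldh1a2, at 40.3 TPM in ISM012-042 replicate 2 and at most 10.9 TPM elsewhere, these values can rest largely on that library. The same limit holds for Rara and Dhrs3, which were also highest in that library, at 21.2 and 73.5 TPM. The r values of these genes were not computed without it. Dhrs3 had no gene above r = 0.758, which was Fgd5, followed by Fam20a (0.728) and Ccdc85b (0.723). The libraries share the TPM total and their cell makeup, so these values describe likeness of pattern in these libraries.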

How the data were processed

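RNA of 18 mouse colon libraries was sequenced, in 3 groups of 6 taken from the sample titles and the design text. The authors deposited TPM, made with software the submitters' processing notes name as DRAGEN 4.0.3 on mm10, while the sources used here do not say how reads were counted, with which annotation or strand. Every column sums to 1000000, so depth is unknown and an abundant class of transcripts lowers all other values. Levels were set to log2(TPM + 1), genes with at least 1 TPM in 6 libraries were kept, and 3 comparisons were fitted together in limma 3.58.1 (R 4.3.3, trend and robust settings, Benjamini-Hochberg, threshold 0.05). Fits were also run on simulated data to check the code, and no call given here rests on them. Named are all 10 members, pathway genes that passed, the 2 most abundant per role, and the 3 genes most like each member of at least 5 TPM, without predicted genes and immunoglobulin or T cell receptor segments. One gene that this rule names is not reported here. The members and lists were chosen with earlier results of these data known. Added after seeing the data were the fit without both libraries of most neutrophil markers and Hoxb13 with median-ratio scaling. Coordinates come from RefSeq GRCm38.p6, the assembly of mm10. No 2 libraries were identical (highest r 0.986). Of 35976 symbols 27 had been turned into dates.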

Additional observations from a re-analysis of the deposited data

Results flagged for a closer look

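Among the 30 groups of 6 levels of the 10 genes, 4 had a library that stood far from the others by Dixon's test, which chance alone gives in about 1 of 20 groups. Dhrs3 was at 73.5 TPM in ISM012-042 replicate 2, against 41.6 TPM in the next library of that group. Crabp2 was at 2.14 TPM in the same library, against 0.227 TPM in the next. Crabp2 was at 0.388 TPM in sham replicate 2, against 0.123 TPM in the next sham library, both under the filter. Cyp26b1 was at 1.76 TPM in vehicle replicate 3, against 0.765 TPM in the next vehicle library.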

How the results depend on the processing

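The vehicle minus sham fall of Adh1 kept its direction in all 26 alternatives and its call in 12, and Rarg in ISM012-042 minus sham kept its call in 24 of 26. The limits are that TPM hides depth, that levels under 1 TPM have unknown precision, and that Hoxb13 and cell markers varied within groups. Where a count or direction moved, the cause was not tested.

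Genes called higher in vehicle minus sham, 46, became 29 with pseudocount 5, 29 with no filter, 510 with median-ratio scaling, 541 with quantile normalization, 403 with mitochondrial genes left out, 287 with array weights, 167 with the Hoxb13 covariate, 724 with both Hoxb13 and median-ratio scaling and 84 without both libraries of most neutrophil markers, and ranged from 20 to 81 leaving out 1 library. Those lower, 584, became 1010, 928 and 905 with median-ratio scaling, quantile normalization and mitochondrial genes left out, 327 with only the groups compared and 1054 with Hoxb13 and median-ratio scaling, and ranged from 314 to 881 leaving out 1 library. In ISM012-042 minus vehicle no alternative called a gene in limma. Genes called higher in ISM012-042 minus sham, 77, became 144, 257, 729, 2322, 1108, 480, 193 and 50 with median-ratio scaling, quantile normalization, mitochondrial genes left out, array weights, the Hoxb13 covariate, only the groups compared, Hoxb13 with median-ratio scaling and no filter, and ranged from 14 to 104 leaving out 1 library. Those lower, 123, became 628, 546, 398, 938, 271, 232 and 703 with median-ratio scaling, quantile normalization, mitochondrial genes left out, array weights, the Hoxb13 covariate, only the groups compared and Hoxb13 with median-ratio scaling, and ranged from 62 to 125 leaving out 1 library.

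Of the 10 genes, the number called higher in vehicle minus sham went from 0 to 1 with median-ratio scaling, quantile normalization, mitochondrial genes left out, array weights and both Hoxb13 fits. The number called lower, 1, became 2 with median-ratio scaling and with mitochondrial genes left out, and 0 with array weights, only the groups compared, no filter and without both libraries, and ranged from 0 to 2 leaving out 1 library. In ISM012-042 minus sham the number called higher went from 0 to 1 with array weights, 2 with the Hoxb13 covariate and 1 with Hoxb13 and median-ratio scaling, and the number lower from 0 to 2 and 1 with array weights and with Hoxb13 and median-ratio scaling.

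Replicate numbers did not pair the samples: over 18 same-numbered pairs r was -0.38 to 0.609, with 6 above 0.1 and 3 libraries closest to their own number. With the replicate number as a block the members called lower in vehicle minus sham went from 1 to 0, and genes called in ISM012-042 minus sham from 77 to 38 higher and from 123 to 71 lower, which is not read as a weaker effect.

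Directions that turned, all uncalled, are given as log2 differences. In vehicle minus sham, Aldh1a1 was 0.0056 without both libraries (-0.54 to 0.35 leaving out 1) and Aldh1a2 -0.0048 with pseudocount 0.1 and -0.052 without both libraries (-0.24 to 0.26 leaving out 1). In ISM012-042 minus vehicle with median-ratio scaling, quantile normalization and Hoxb13 with median-ratio scaling in that order, Dhrs3 was -0.22, -0.15 and -0.21, Rbp2 -0.089, -0.026 and -0.21, Cyp26b1 -0.049, -0.091 and -0.025, Rara -0.13, -0.15 and -0.13, Rarb -0.039, -0.12 and -0.051, and Crabp2 -0.0068, -0.059 and -0.030. With array weights Rbp2 was -0.10, Rarb -0.060 and Crabp2 -0.043. Dhrs3 was -0.058 with mitochondrial genes left out and -0.097 without both libraries (-0.066 to 0.16 leaving out 1). Crabp2 was -0.027 with pseudocount 0.1 and -0.12 without both libraries (-0.17 to 0.16 leaving out 1). Aldh1a1 was -0.0095 with median-ratio scaling (-0.26 to 0.83 leaving out 1). In ISM012-042 minus sham, Aldh1a1 was -0.12, -0.015, -0.43 and -0.86 with median-ratio scaling, quantile normalization, the Hoxb13 covariate and Hoxb13 with median-ratio scaling (-0.16 to 0.61 leaving out 1). Dhrs3 was -0.014 and -0.061 with median-ratio scaling and Hoxb13 with median-ratio scaling, and Rarb 0.046 with the Hoxb13 covariate (-0.13 to 0.054 leaving out 1). A TPM minimum of 5 gave no value for Rarb, Cyp26b1 and Crabp2.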
